A study of Mus musculus with 9 samples.

Results

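Messenger RNA levels of 31 mouse genes of the tricarboxylic acid (TCA) cycle and the pyruvate dehydrogenase (PDH) complex were compared among astrocytes and 2 populations of glioblastoma cells. The genes were taken by name from the 49315 gene IDs of the count table, and all 31 were matched. They encode 5 parts of the PDH complex, the 4 kinases that act on it, a catalytic and a regulatory part of its phosphatase, 11 enzymes or subunits of the cycle, 3 isocitrate and aconitase enzymes beside it, and 6 enzymes of the malate-aspartate shuttle and of pyruvate and malate conversion. PDH turns pyruvate from glycolysis into acetyl-CoA inside mitochondria, and the cycle oxidizes that acetyl-CoA and passes the electrons to the respiratory chain. PDH kinases switch the complex off by phosphorylating it and the phosphatase switches it on again, while pyruvate carboxylase and the malic enzymes refill or drain the cycle. In the brain, astrocytes are known for pyruvate carboxylase, which lets them make glutamine from glucose, and tumor cells for sending much of their pyruvate to lactate.

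The libraries came from co-cultures of SB28, a mouse glioblastoma line marked with green fluorescent protein on the C57BL6 background, with primary neonatal astrocytes of C57BL6 mito::mKate2 mice, whose transgene puts the red protein mKate2 into mitochondria and was driven by the CAG promoter. Both cell types were grown 1:1 for 2 days in DMEM F12 medium with fetal bovine serum, N2 supplement and 20 ng/ml each of EGF and FGF, then sorted. The 3 groups were astrocytes, SB28 cells without astrocyte mitochondria (mKate2- SB28) and SB28 cells sorted as having taken them up (mKate2+ SB28). Each group had 3 libraries from separate co-cultures. The paper describes the 3 groups as sorted from 3 distinct co-cultures, so groups shared co-cultures, which the main tests did not model. Every group had been in co-culture, every astrocyte carried the transgene, and SB28 is 1 line, so no library shows either cell type grown alone and the tumor side of every comparison is that line. Libraries held between 24454561 and 39287841 assigned reads. Levels are given below as CPM, a gene's reads per 1000000 assigned reads of the library. Wherever genes are compared with each other, levels are given as RPKM, the CPM divided by the gene's exonic length in kilobases. That length joins the exons of all annotated transcripts of the gene and can exceed the length of its mRNA. Orders of genes by RPKM therefore depend on it, whereas differences of a gene between groups do not.

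Markers bore out the astrocyte label in part. Of 15 astrocyte markers, 14 were above 1 CPM in the astrocyte libraries and 10 were at least 10-fold higher there than in SB28, among them the cholesterol carrier gene Apoe, at 265 CPM on average. The gap junction gene Gja1 went against its label, with 168, 212 and 216 CPM in the astrocyte libraries and 241 to 284 CPM in SB28, so that every SB28 library was above every astrocyte library. Clu was also higher on average in SB28, at 113 CPM in mKate2- and 110 CPM in mKate2+ SB28 against 96.8 CPM in astrocytes, with overlapping libraries. Summed over the list, astrocyte markers reached 1443, 1413 and 2278 CPM in astrocyte replicates 1, 2 and 3 and between 508 and 552 CPM in SB28. The transcription factor gene Olig1, the most abundant marker of the oligodendrocyte lineage list, stood at 541, 241 and 304 CPM in the astrocyte libraries, the 9 genes of that list together at 847, 444 and 508 CPM, and the list at no more than 27.1 CPM in any SB28 library. Of the same list, Olig2 averaged 194 CPM, Cspg4 22.9 CPM and Pdgfra 19.1 CPM in astrocytes, whereas Sox10, Mog and Mag were at or below 0.142 CPM in every astrocyte library. The collagen gene Col1a2 led the fibroblast list in both cell types, at 990 CPM on average in astrocytes. The 6 genes of that list summed to 1470, 1578 and 1181 CPM in the astrocyte libraries and to between 555 and 821 CPM in SB28. The actin gene Acta2 had 60.1, 86.2 and 131 CPM in astrocytes and no more than 17.8 CPM in SB28, Pdgfrb averaged 58.9 CPM in astrocytes, and Lum and Dcn were at or below 0.512 and 2.45 CPM. Of 8 microglial markers, 2 were above 1 CPM in astrocytes, and the most abundant, Tmem119, had 24.8 to 39.1 CPM there and 47.3 to 61.1 CPM in SB28. The 7 neuronal markers summed to 27.8, 57.4 and 54.1 CPM in the astrocyte libraries, where Stmn2 was the most abundant on average, and to between 19.9 and 27.1 CPM in SB28, where Tubb3 was. Rbfox3 was at 0 in every library. The 4 endothelial markers summed to no more than 6.94 CPM in any library. In bulk libraries, fewer cells of a type and less RNA per cell cannot be told apart, and the part of these other cells in the results below was not tested.

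Some libraries stood apart from their group in how short and long genes were represented. In mKate2+ replicate 2, genes with less than 2405 bases of exon were 0.51 higher than genes with more than 7606 bases, on the log2 scale against the mKate2- mean, whereas the other 5 SB28 libraries lay between -0.05 and 0.07. On the same scale the astrocyte libraries were at 0.28, -0.06 and -0.32. The count of members past an adjusted p of 0.05 is therefore also given without mKate2+ replicate 2 and without astrocyte replicates 1 and 3.

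Against astrocytes, the SB28 populations carried more mRNA for the PDH acetyltransferase core, for both aspartate aminotransferases, for the NAD+-dependent malic enzyme Me2 and for the succinyltransferase of the oxoglutarate dehydrogenase complex. They carried less for the kinases Pdk2 and Pdk4, for pyruvate carboxylase and for the malic enzyme Me3. In edgeR (quasi-likelihood test, p adjusted over 13356 genes by Benjamini and Hochberg), 12 of the 31 members were higher in mKate2- SB28 and 5 lower at an adjusted p below 0.05, which 29.3% and 33.8% of all genes tested were. In mKate2+ SB28 13 members were higher and 5 lower, beside 28.0% and 32.1% of 13342 genes. As shares of the list, 38.7% and 41.9% of the members were called higher and 16.1% lower in either population. The list was not tested as a set. Me3 was above 1 CPM in astrocytes alone, passed the filter on low counts only through them and so had to differ; without it, 4 of 30 members were lower in either population, and 3 at the stricter rule given below. The median log2 fold change of the members was 0.24 in mKate2- and 0.32 in mKate2+ SB28, and over all genes tested it was -0.04 and -0.02. A positive log2 fold change was found for 22 of the 31 members in either population, beside 48.5% and 49.4% of all genes. In TMM-scaled levels, all mKate2- libraries lay above all astrocyte libraries for 15 members and below for 6, as for 34.1% and 36.8% of all genes, and all mKate2+ libraries for 16 and 5, as for 33.1% and 35.5%. At the study's stricter rule, which also asks for a log2 fold change beyond 1, 3 members were higher and 4 lower in either population. One of the 3, Dlst, lay close to that bound in mKate2- SB28, with a log2 fold change of 1.02, and was at 0.95 without astrocyte replicate 1 and 0.97 without mKate2- replicate 3, which left 2 members. All genes passed that rule at 11.5% and 22.4% in mKate2- and at 12.2% and 22.8% in mKate2+ SB28. The paper applied its rule with DESeq2, and these counts come from edgeR. With DESeq2, 3 members were also higher and 4 lower in either population. The 2 comparisons share the 3 astrocyte libraries, so their values are set side by side and are not independent of each other.

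Without astrocyte replicate 3, 12 members were higher and 7 lower in mKate2- SB28, beside 30.96% and 33.4% of all genes, and 10 were higher and 5 lower in mKate2+ SB28, beside 26.4% and 30.05%. Without astrocyte replicate 1, 17 and 6 members passed in mKate2- SB28, beside 31.7% and 34.7% of all genes, and 13 and 6 in mKate2+ SB28, beside 28.0% and 31.8%. Without mKate2+ replicate 2, 12 were higher and 4 lower in that population, beside 26.1% and 29.9%. Of the 17 members past the threshold in mKate2- SB28, 15 passed whichever library was left out, and of the 18 in mKate2+ SB28, 12 did. The remaining calls were Pdhx and Idh3a in both populations and Dld, Pdk1, Cs and Sucla2 in mKate2+ SB28, and each is given below with the highest adjusted p reached with 1 library left out. Summed over the 31 members, the mRNA came to 4053 ± 202 CPM in astrocytes (SD, n = 3), 4962 ± 159 CPM in mKate2- and 5039 ± 47.9 CPM in mKate2+ SB28, and the lowest SB28 library, at 4781 CPM, was above the highest astrocyte library, at 4216 CPM.

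**Figure D1:**
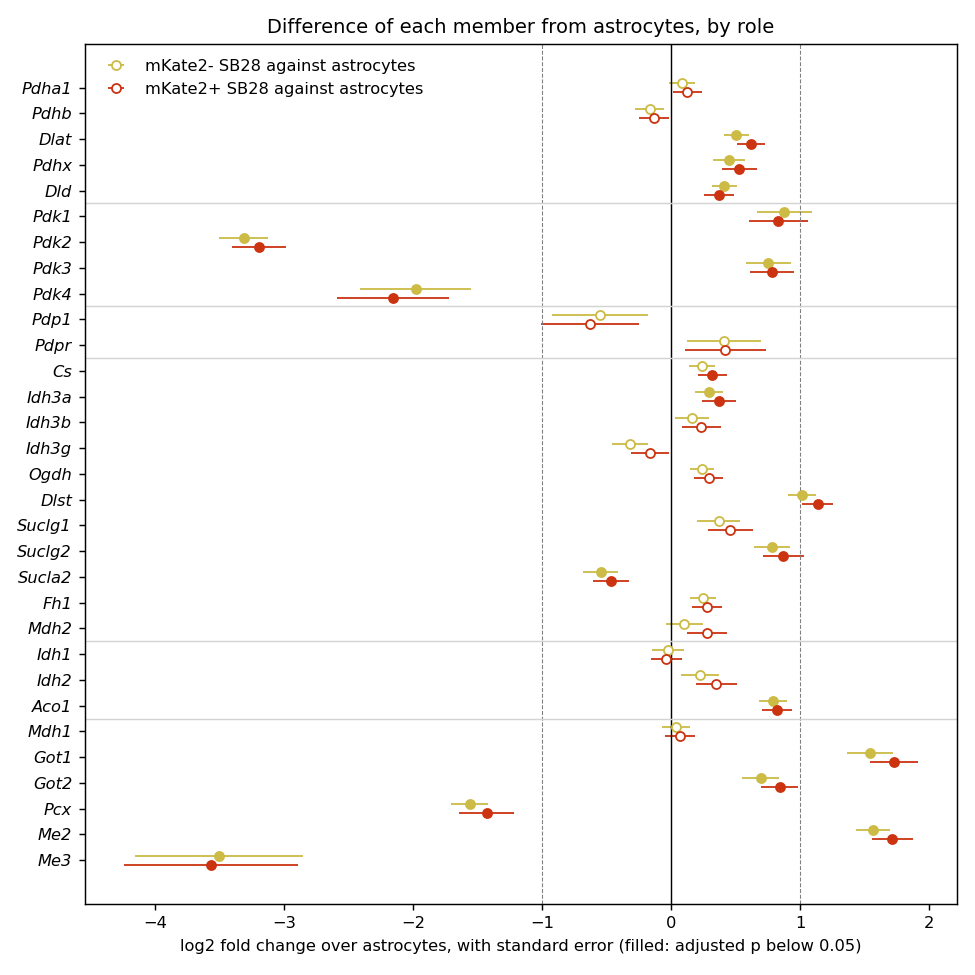
Log2 fold change of each of the 31 members in mKate2- (yellow) and mKate2+ (red) SB28 over astrocytes, with standard errors, ordered by role; filled points passed an adjusted p of 0.05 and dashed lines mark a log2 fold change of 1 in either direction. The 7 genes with filled points beyond the dashed lines are Me2, Got1 and Dlst to the right and Pcx, Pdk4, Pdk2 and Me3 to the left. The Me3 points are a description, because Me3 passed the filter on low counts only through the astrocytes and so had to differ.

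Within the PDH complex, the genes of its core and its shared subunit were higher in SB28, whereas the 2 genes of the pyruvate dehydrogenase enzyme itself did not pass the test. Dlat, which encodes the acetyltransferase that forms the core, had 104, 117 and 102 CPM in the astrocyte libraries, 150, 147 and 155 CPM in mKate2- and 156, 153 and 161 CPM in mKate2+ SB28. Neither SB28 population overlapped the astrocytes, and edgeR gave log2 fold changes of 0.50 ± 0.10 (SE, adjusted p = 0.0026) and 0.62 ± 0.11 (adjusted p = 0.00199). Pdhx, the protein that anchors Dld to the core, was higher by 0.45 ± 0.12 and 0.53 ± 0.14 on the log2 scale, with edgeR adjusted p-values of 0.0143 and 0.012. Without mKate2- replicate 1 the adjusted p of Pdhx was 0.0598, and without mKate2+ replicate 3 it was 0.0559. Dld, the dihydrolipoamide dehydrogenase that the PDH and oxoglutarate dehydrogenase complexes share, was higher by 0.41 ± 0.10 in mKate2- SB28 (edgeR adjusted p = 0.00675) and by 0.37 ± 0.12 in mKate2+ SB28 (adjusted p = 0.026). The second of these calls was lost without astrocyte replicate 2 or 3 or mKate2+ replicate 1 or 3, with an edgeR adjusted p of up to 0.0989, and mKate2+ replicate 2 had the least Dld of the SB28 libraries, 132 CPM against 159 to 171 CPM in the others.

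Pdha1, which encodes the alpha subunit of the dehydrogenase, stood at 301 ± 18.3 CPM in astrocytes, 316 ± 4.91 CPM in mKate2- and 311 ± 7.60 CPM in mKate2+ SB28 (SD, n = 3). Its groups overlapped. Pdhb, the beta subunit, had 113 ± 10.2, 99.7 ± 2.89 and 97.8 ± 3.67 CPM, with log2 fold changes of -0.17 ± 0.11 and -0.13 ± 0.12 over astrocytes. These 2 levels carry a limit from the annotation, since Pdha1 shares 603 exonic bases with Map3k15 on the opposite strand and Pdhb has a processed pseudogene, Gm6123, that is 97.0% identical over 1079 bases. Per length, Pdha1 was the most abundant mRNA of the complex in every group, at 80.6 ± 4.91 RPKM in astrocytes, and Pdhx the least, at 7.71 ± 0.63 RPKM. The 5 genes summed to 173 ± 5.84 RPKM in astrocytes, 196 ± 3.13 RPKM in mKate2- and 193 ± 9.49 RPKM in mKate2+ SB28.

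The PDH kinases divided by gene. Pdk2 and Pdk4 were lower in SB28 and Pdk1 and Pdk3, which encode enzymes with the same reaction, higher. The genes lie on different chromosomes in GRCm38, Pdk1 at chr2:71873224-71903858, Pdk2 at chr11:95026258-95041354, Pdk3 at chrX:93764607-93832201 and Pdk4 at chr6:5483351-5496309. The 250 bases before the RefSeq start of each kinase gene are shown so that members with opposite directions can be read against each other, together with those of Got1, the shuttle gene described below. They were read from RefSeq promoters of GRCm38.p6, 5′ to 3′ on the gene's strand, which is plus for Pdk1 (chr2:71872974-71873223) and minus for Pdk2 (chr11:95041372-95041621), Pdk3 (chrX:93832151-93832400), Pdk4 (chr6:5496279-5496528) and Got1 (chr19:43524606-43524855). The gene positions above are those of GENCODE, whose starts for Pdk1 and Got1 are the same. The RefSeq start lies 51 bases inside the GENCODE gene for Pdk3, 31 bases inside it for Pdk4 and 17 bases before it for Pdk2. Capitals mark matches, on either strand, to the core of the hypoxia response element (ACGTG), the half-site of the estrogen-related receptors (AAGGTCA), the FOXO motif (GTAAACA) or the C/EBP-ATF response element (TGATGNAA).
Pdk1: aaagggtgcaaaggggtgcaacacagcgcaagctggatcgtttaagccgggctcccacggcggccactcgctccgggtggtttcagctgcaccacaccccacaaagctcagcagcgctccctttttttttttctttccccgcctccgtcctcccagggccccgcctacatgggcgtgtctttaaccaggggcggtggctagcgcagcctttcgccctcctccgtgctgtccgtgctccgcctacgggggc
Pdk2: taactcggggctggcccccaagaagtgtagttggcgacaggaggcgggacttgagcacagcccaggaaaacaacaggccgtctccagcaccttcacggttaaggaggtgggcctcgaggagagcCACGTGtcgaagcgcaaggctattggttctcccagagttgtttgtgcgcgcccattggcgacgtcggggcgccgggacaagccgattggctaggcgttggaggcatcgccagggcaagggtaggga
Pdk3: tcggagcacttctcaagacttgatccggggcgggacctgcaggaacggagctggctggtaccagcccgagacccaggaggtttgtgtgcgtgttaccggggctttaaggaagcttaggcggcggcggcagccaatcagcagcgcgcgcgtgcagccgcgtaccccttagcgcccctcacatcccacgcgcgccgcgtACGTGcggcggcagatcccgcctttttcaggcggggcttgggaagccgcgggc
Pdk4: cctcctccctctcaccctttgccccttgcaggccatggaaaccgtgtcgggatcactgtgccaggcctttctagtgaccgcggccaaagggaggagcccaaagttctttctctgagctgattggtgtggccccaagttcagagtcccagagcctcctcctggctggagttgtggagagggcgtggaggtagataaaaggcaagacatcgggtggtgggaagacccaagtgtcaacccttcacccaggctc
Got1: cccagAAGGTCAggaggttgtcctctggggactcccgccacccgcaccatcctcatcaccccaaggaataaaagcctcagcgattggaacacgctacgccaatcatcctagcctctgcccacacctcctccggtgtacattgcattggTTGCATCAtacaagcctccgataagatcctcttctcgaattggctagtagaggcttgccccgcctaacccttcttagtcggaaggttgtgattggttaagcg

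Pdk2 held 2 overlapping matches to ACGTG, 1 on each strand, that start 126 and 125 bases before the RefSeq start, and Pdk3 held 1 that starts 53 bases before its RefSeq start. Pdk1 and Pdk4 held no match to any of the 4 motifs as written. The letters GCGTG, which differ from ACGTG in the first base, were not searched or marked. The printed windows of Pdk1, Pdk3 and Pdk4 hold them, so the marks do not show that a kinase gene lacks a hypoxia response element. Among the 28 members with a promoter sequence, 8 had at least 1 match to ACGTG, beside 16.6% of 27025 promoters of the same length. A gene that was lower in SB28 and one that was higher thus both carried these letters. Of these 28, Got1 alone held AAGGTCA, which 4.05% of all promoters held. Got1 and Me3 held TGATGNAA, beside 3.53% of all promoters. None of the 28 held GTAAACA, found in 3.09% of all promoters. Pdp1, Idh3a and Me2 had no window. The RefSeq start lay 27467 bases inside the GENCODE gene for Sucla2, 433 bases for Mdh1 and 426 bases for Me3. These matches describe the letters of a short window and were not tested against the expression values.

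Pdk2, a kinase that most tissues express, had 59.8, 46.4 and 56.6 CPM in the astrocyte libraries. In mKate2- SB28 it had 4.34, 5.85 and 6.0 CPM, and in mKate2+ SB28 4.74, 6.59 and 5.47 CPM. Every SB28 library lay below every astrocyte library, and the 2 SB28 populations overlapped. The log2 fold change of Pdk2 was -3.31 ± 0.19 in mKate2- SB28 (edgeR adjusted p = 1.1e-05) and -3.19 ± 0.21 in mKate2+ SB28 (edgeR adjusted p = 2.29e-05), a level 9.94-fold and 9.15-fold lower.

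Pdk4, the kinase known to be induced by fasting and fatty acids, varied among the astrocyte libraries, with 21.7 and 17.4 CPM in replicates 1 and 3 and 56.4 CPM in replicate 2. It had 6.36, 8.55 and 8.95 CPM in mKate2- and 7.21, 6.85 and 6.20 CPM in mKate2+ SB28. Even the lowest astrocyte library was above all SB28 libraries. The log2 fold changes were -1.98 ± 0.43 (edgeR adjusted p = 0.00484) and -2.16 ± 0.43 (edgeR adjusted p = 0.00373), or 3.94-fold and 4.46-fold lower. Without astrocyte replicate 2 Pdk4 was 2.47-fold and 2.79-fold lower (edgeR adjusted p = 0.00304 and 0.00197).

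Pdk1, a kinase gene that hypoxia is known to induce, had 96.0, 151 and 111 CPM in astrocytes, 178, 277 and 194 CPM in mKate2- and 161, 247 and 192 CPM in mKate2+ SB28. Replicate 2 was the highest of each group, and the astrocyte and SB28 groups did not overlap. It was higher by 0.88 ± 0.21 on the log2 scale in mKate2- SB28 (edgeR adjusted p = 0.00829) and by 0.83 ± 0.23 in mKate2+ SB28 (edgeR adjusted p = 0.0153), and the adjusted p of the second was 0.0507 without astrocyte replicate 1. Pdk3, on the X chromosome, had 42.4 ± 9.24 CPM in astrocytes, 70.6 ± 9.11 CPM in mKate2- and 69.1 ± 3.41 CPM in mKate2+ SB28. It was higher by 0.75 ± 0.18 (edgeR adjusted p = 0.0066) and 0.78 ± 0.17 (edgeR adjusted p = 0.00579).

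Per length, the 4 kinases summed to 58.1 ± 11.0 RPKM in astrocytes, 59.3 ± 10.6 RPKM in mKate2- and 56.4 ± 6.40 RPKM in mKate2+ SB28, differences well within the spread. In CPM, where long mRNAs weigh more, the sum was 248 ± 50.8, 300.2 ± 62.9 and 281 ± 45.5, or 1.21-fold and 1.14-fold that of astrocytes. Their make-up differed. Pdk2 supplied 35.7%, 20.7% and 35.4% of the summed RPKM in the astrocyte libraries and between 2.59% and 3.47% in SB28. Pdk1 and Pdk3 supplied 26.3% and 28.4% on average in astrocytes, 46.5% and 46.7% in mKate2- and 45.3% and 48.2% in mKate2+ SB28. No share of an SB28 library overlapped that of an astrocyte library for any of the 4 genes.

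**Figure D2:**
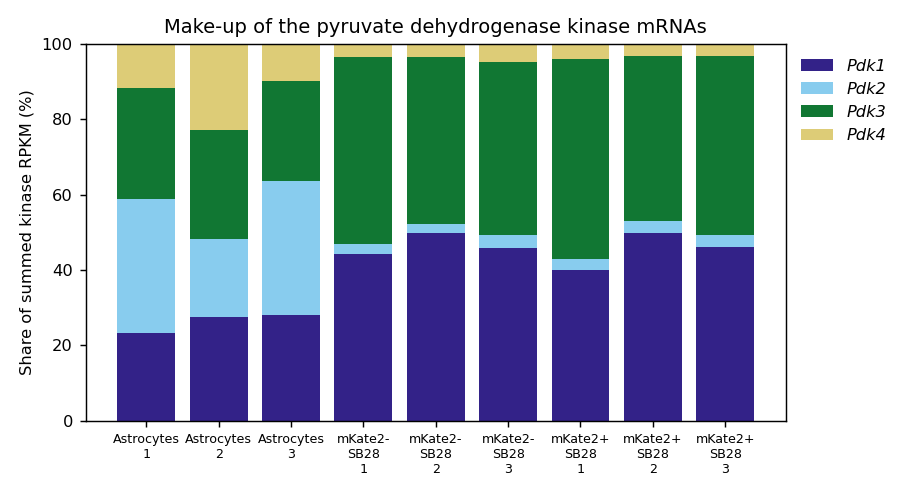
Share of each kinase gene in the summed RPKM of the PDH kinases (y axis, percent), 1 bar per library. Pdk2 (light blue) takes 20.7% to 35.7% in the 3 astrocyte libraries and at most 3.47% in the 6 SB28 libraries, where Pdk1 (dark blue) and Pdk3 (green) take most of the bar.

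Neither of the 2 listed genes of the PDH phosphatase, Pdp1 and Pdpr, passed the test; Pdp2, which was not on the list, did and is given with the related genes. Pdp1, the catalytic subunit that reactivates PDH, varied widely among the astrocyte libraries, with 28.6, 48.6 and 97.4 CPM in replicates 1, 2 and 3, and replicate 3 was also the library with the most astrocyte marker mRNA. The SB28 libraries were close together, between 32.9 and 39.6 CPM, inside the astrocyte range. Without astrocyte replicate 3 the log2 fold change of Pdp1 in mKate2- SB28 was 0.03. Pdpr, the regulatory subunit, had 12.6, 27.2 and 32.0 CPM in astrocytes and between 26.7 and 36.5 CPM in SB28. The log2 fold changes over astrocytes were -0.55 ± 0.37 and -0.63 ± 0.38 for Pdp1 and 0.41 ± 0.29 and 0.42 ± 0.31 for Pdpr, and all 4 of the 95% intervals spanned both directions.

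Among the 11 genes of the cycle itself, 3 were higher and 1 lower in mKate2- SB28, and 4 were higher and 1 lower in mKate2+ SB28. The higher calls were 27.3% and 36.4% of these genes, beside 29.3% and 28.0% of all genes, and the lower call 9.09% in either population, beside 33.8% and 32.1%. The largest differences among them were in the 2 complexes that act after isocitrate dehydrogenase. Dlst, the succinyltransferase core of the oxoglutarate dehydrogenase complex (chr12:85110833-85134845), had 127, 155 and 141 CPM in astrocytes, 264, 281 and 300 CPM in mKate2- and 285, 289 and 307 CPM in mKate2+ SB28. The lowest SB28 library was well above the highest astrocyte library. The log2 fold changes were 1.02 ± 0.11 (edgeR adjusted p = 0.00014) and 1.14 ± 0.12 (edgeR adjusted p = 0.000178). Ogdh, the dehydrogenase that works on that core, also had no overlap between astrocytes and SB28, with 258 ± 10.6, 301 ± 10.3 and 300 ± 21.7 CPM, but at edgeR adjusted p-values of 0.0612 and 0.0516 its log2 fold changes of 0.24 ± 0.10 and 0.29 ± 0.11 did not pass. Per exonic length, Dlst was below Ogdh, at 14.8 RPKM beside 47.2 RPKM in astrocytes and 29.5 beside 55.2 RPKM in mKate2- SB28. The lengths used were 9559 bases for Dlst and 5456 bases for Ogdh, so this order depends on the annotated exons.

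Succinyl-CoA ligase showed opposite directions for its beta subunits, which decide whether the enzyme makes GTP (Suclg2) or ATP (Sucla2). Suclg2 had 39.2, 57.1 and 54.7 CPM in astrocytes, 81.0, 85.5 and 90.2 CPM in mKate2- and 80.4, 88.7 and 92.2 CPM in mKate2+ SB28. Sucla2 had 176, 149 and 132 CPM in astrocytes, 101, 102 and 107 CPM in mKate2- and 106, 97.8 and 111 CPM in mKate2+ SB28. For both genes the astrocyte and SB28 libraries did not overlap. Suclg2 was higher by 0.78 ± 0.14 on the log2 scale in mKate2- SB28 (edgeR adjusted p = 0.00193) and by 0.87 ± 0.16 in mKate2+ SB28 (edgeR adjusted p = 0.00254). The log2 fold change of Sucla2 was -0.55 ± 0.13 (edgeR adjusted p = 0.00844) and -0.47 ± 0.14 (edgeR adjusted p = 0.0221), and the second call was lost without any 1 of the mKate2+ libraries, with an edgeR adjusted p of up to 0.0734. Suclg2 supplied 22.4% ± 5.53 of the summed RPKM of both beta genes in astrocytes, 41.6% ± 0.64 in mKate2- and 41.7% ± 2.20 in mKate2+ SB28 (SD, n = 3). A processed pseudogene of Suclg2, Gm15163, is 98.9% identical over 1302 bases, so reads of Suclg2 may be split with it. Suclg1, the alpha subunit that both forms share, had 87.1, 59.3 and 64.8 CPM in astrocytes and between 84.7 and 95.3 CPM in SB28 and did not pass.

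Cs, citrate synthase, which opens the cycle, had 364, 371 and 350 CPM in astrocytes and between 400 and 440 CPM in SB28, without overlap. Its log2 fold change was 0.24 ± 0.10 in mKate2- (edgeR adjusted p = 0.0683) and 0.32 ± 0.11 in mKate2+ SB28 (edgeR adjusted p = 0.0386). The call in mKate2+ SB28 was lost whichever library was left out, with edgeR adjusted p-values from 0.05003 to 0.104, and Cs did not pass the test between the SB28 populations given below. Of the 3 subunits of the NAD+-dependent isocitrate dehydrogenase, the catalytic Idh3a was higher by 0.29 ± 0.11 and 0.37 ± 0.13 (edgeR adjusted p = 0.0457 and 0.0431). That call was lost in 4 of 6 and in 5 of 6 fits without 1 library, with an adjusted p of up to 0.15 and 0.162. Leaving out astrocyte replicate 2 or 3 ended it in both populations, as did replicates 1 and 3 of either SB28 population, and astrocyte replicate 1 ended it in mKate2+ SB28. Idh3b and Idh3g, the regulatory subunits, did not pass. Idh3g had 139 ± 22.2 CPM in astrocytes, 110 ± 2.97 CPM in mKate2- and 118 ± 1.05 CPM in mKate2+ SB28.

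Fh1, fumarase, and Mdh2, the mitochondrial malate dehydrogenase, complete the list of cycle genes. Fh1 had 97.7 ± 6.19, 115 ± 3.51 and 112 ± 8.51 CPM, and its log2 fold changes of 0.25 ± 0.10 and 0.28 ± 0.12 did not pass (edgeR adjusted p = 0.0589 and 0.0728). Mdh2 had 362, 286 and 271 CPM in astrocytes and between 315 and 369 CPM in SB28, and the groups overlapped. The 11 cycle genes summed to 420 ± 35.2 RPKM in astrocytes, 464 ± 13.6 RPKM in mKate2- and 477 ± 8.86 RPKM in mKate2+ SB28, a sum 1.10-fold and 1.13-fold that of astrocytes.

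Of the enzymes that work on isocitrate outside the NAD+-dependent step, Aco1 alone passed. It encodes the cytosolic aconitase, which also acts as an iron-regulatory RNA-binding protein. It had 95.4, 94.1 and 81.7 CPM in astrocytes, 156, 155 and 152 CPM in mKate2- and 159, 139 and 157 CPM in mKate2+ SB28, without overlap between astrocytes and SB28, and was higher by 0.79 ± 0.11 (edgeR adjusted p = 0.000451) and 0.82 ± 0.12 (edgeR adjusted p = 0.000768). Idh1, the cytosolic NADP+-dependent isocitrate dehydrogenase, stood at 128 ± 10.2, 124 ± 13.7 and 118 ± 5.80 CPM, with overlapping groups and 95% intervals of the log2 difference from -0.31 to 0.26 and from -0.32 to 0.24. Idh2, its mitochondrial counterpart, had 232, 208 and 166 CPM in astrocytes and between 226 and 259 CPM in SB28, and its log2 fold changes of 0.23 ± 0.15 and 0.35 ± 0.16 did not pass.

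Of the 6 genes of the shuttle and of pyruvate and malate conversion, 5 passed in both populations, beside 63.1% and 60.1% of all genes in either direction, and 4 of them passed the stricter rule, beside 33.9% and 35.0%. Me3, which passed the filter on low counts only through the astrocytes, is among both counts. Got1, the cytosolic aspartate aminotransferase of the malate-aspartate shuttle (chr19:43499752-43524605), had 104, 95.6 and 66.8 CPM in astrocytes. It had 253, 267 and 248 CPM in mKate2- and 292, 280 and 265 CPM in mKate2+ SB28. Astrocyte replicate 3 was the lowest, and every SB28 library was above the highest astrocyte library. Got1 was 2.91-fold higher in mKate2- SB28 (log2 fold change 1.54 ± 0.18, edgeR adjusted p = 0.00021) and 3.31-fold higher in mKate2+ SB28 (1.73 ± 0.19, edgeR adjusted p = 0.000207).

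Got2, the mitochondrial partner of Got1, had 325, 294 and 249 CPM in astrocytes, 414, 480 and 499 CPM in mKate2- and 473, 503 and 501 CPM in mKate2+ SB28. Astrocytes and SB28 did not overlap, and Got2 was higher by 0.69 ± 0.14 (edgeR adjusted p = 0.00382) and 0.84 ± 0.15 (edgeR adjusted p = 0.00188). It shares 434 exonic bases with Gm45760 on the opposite strand, and the lincRNA Gm10874 and the pseudogene Got2-ps1 are 98.8% and 99.1% identical over 1637 and 1293 bases, so its level is less certain than that of Got1. Mdh1, the cytosolic malate dehydrogenase of the same shuttle, had 260 ± 17.5, 265 ± 10.04 and 259 ± 4.92 CPM and overlapping groups, with 95% intervals of the log2 difference from astrocytes of -0.21 to 0.28 and -0.20 to 0.33.

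Pcx, pyruvate carboxylase (chr19:4510472-4621752), had 77.6, 85.3 and 109 CPM in astrocytes and 32.9, 29.2 and 29.0 CPM in mKate2- SB28. In mKate2+ SB28 it had 42.5, 27.1 and 26.5 CPM, with replicate 1 the highest of the SB28 libraries. No SB28 library reached the astrocyte range. The log2 fold changes were -1.56 ± 0.14 (edgeR adjusted p = 7.12e-05) and -1.43 ± 0.21 (edgeR adjusted p = 0.000919), or 2.95-fold and 2.69-fold lower.

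The mitochondrial malic enzymes, which turn malate into pyruvate, went in opposite directions. Me2, the NAD+-dependent form, had 46.3, 56.3 and 42.7 CPM in astrocytes, 128, 154 and 143 CPM in mKate2- and 136, 166 and 149 CPM in mKate2+ SB28, without overlap between astrocytes and SB28. It was 2.96-fold higher (log2 fold change 1.56 ± 0.13, edgeR adjusted p = 5.49e-05) and 3.28-fold higher (1.71 ± 0.16, edgeR adjusted p = 0.000105). Me3, the NADP+-dependent form, was the scarcest member in all groups, with 2.04, 2.20 and 7.94 CPM in the astrocyte libraries and 0.18 to 0.47 CPM in SB28, which were 7 to 17 reads a library. Its log2 fold changes were -3.50 ± 0.65 and -3.57 ± 0.67, or 11.3-fold and 11.8-fold lower, and 5.97-fold and 6.32-fold lower without astrocyte replicate 3. They are given as a description, with no p, because Me3 passed the filter only through the astrocytes. The antisense gene A230065N10Rik shares 569 of its exonic bases. Astrocyte replicate 3, the highest for Me3 and Pcx, was the library with the most astrocyte marker mRNA.

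**Figure D3:**
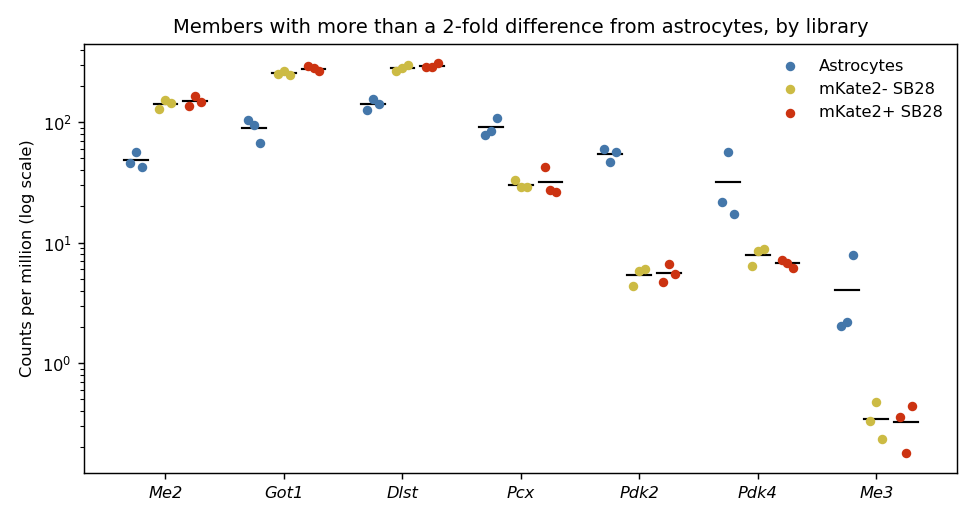
CPM on a log scale in every library for the 7 members with a log2 fold change beyond 1 at an adjusted p below 0.05 against astrocytes, with astrocytes in blue, mKate2- SB28 in yellow, mKate2+ SB28 in red and the mean of each group as a line. For each of the 7 genes all 6 SB28 libraries lie on 1 side of all 3 astrocyte libraries, and the SB28 populations overlap. Me3 passed the filter on low counts only through the astrocytes, so it had to differ and is shown as a description.

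Per length, the order of the members changed at the top. In astrocytes the most abundant were Mdh1 at 101 ± 6.82 RPKM, Mdh2 at 86.0 ± 13.7 RPKM, Pdha1 at 80.6 ± 4.91 RPKM and Idh2 at 77.9 ± 12.9 RPKM, with ranges over libraries that overlapped from each to the next. Got1 was the 12th of 31 there, at 35.0 ± 7.67 RPKM. In mKate2- SB28 it was the second, at 101 ± 3.76 RPKM, between Mdh1 at 103 ± 3.91 RPKM and Got2 at 96.2 ± 9.15 RPKM, and in mKate2+ SB28 it was the first, at 110 ± 5.23 RPKM, followed by Got2 at 102 ± 3.55 RPKM. The mKate2- values of these 3 genes overlapped from each to the next. In mKate2+ SB28 the lowest Got1 library, at 104.4 RPKM, and the highest Got2 library, at 104.3 RPKM, all but touched. The exonic length used was 2539 bases for Got1 and 4824 bases for Got2, whose longest protein-coding transcript has 2530 bases. The order of Got1, Got2 and Mdh1 in each group therefore rests on the length used. Pdk2 moved from the 20th to the 30th place in both SB28 populations, Pcx from the 19th to the 27th, and Me3 was the last in all 3 groups.

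Ratios of partner genes within a library do not depend on how libraries are scaled. Their size depends on the exonic lengths used, but their difference between groups does not. For 7 such ratios in 3 comparisons, the exact two-sided permutation test of 3 against 3 libraries cannot go below p = 0.1, and over the 21 tests that smallest value adjusts to 0.21, so none passed. The log2 ratio of Sucla2 to Suclg2 was 1.82 ± 0.49 in astrocytes, 0.49 ± 0.04 in mKate2- and 0.48 ± 0.13 in mKate2+ SB28 (SD, n = 3). That of Got1 to Got2 was -0.80 ± 0.15, 0.07 ± 0.15 and 0.11 ± 0.11, and that of Idh1 to Idh2 was -0.75 ± 0.17, -1.02 ± 0.11 and -1.15 ± 0.04. In all 3 of these ratios every SB28 library lay on the same side of every astrocyte library. The log2 ratio of Me2 to Me3 was 4.88 ± 1.25 in astrocytes, 9.74 ± 0.47 in mKate2- and 9.95 ± 0.80 in mKate2+ SB28, also without overlap between astrocytes and SB28. Its separation is only a description, because Me3 passed the filter on low counts only through the astrocytes. The log2 ratio of Pdk2 to Pdk4 was 1.11 ± 1.08, -0.41 ± 0.02 and -0.13 ± 0.29, and mKate2+ SB28 overlapped the astrocytes. The ratio of Mdh1 to Mdh2 was 0.25 ± 0.14, 0.17 ± 0.04 and 0.03 ± 0.09. It overlapped between each SB28 population and astrocytes, and it was the only 1 of the 7 ratios in which the SB28 populations did not overlap, with at most 0.11 in mKate2+ and at least 0.14 in mKate2- SB28 (exact permutation p = 0.1, adjusted p = 0.21). The ratio of Pdk1 to Pdk3 overlapped between all groups.

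Genes that belong to the same pathways but were not on the list of 31 were called in both directions. Of 35 related genes, 34 were tested against astrocytes, and 10 were higher and 9 lower in mKate2- and 10 higher and 8 lower in mKate2+ SB28, with median log2 fold changes of 0.01 and 0.10. That is 29.4% higher in either population, beside 29.3% and 28.0% of all genes, and 26.5% and 23.5% lower, beside 33.8% and 32.1%, with no test of the difference. The lower counts include Slc25a18, which passed the filter on low counts only through the astrocytes. Without it, 8 of 33 related genes were lower in mKate2- and 7 of 33 in mKate2+ SB28. The untested gene was Pck1, the cytosolic phosphoenolpyruvate carboxykinase, at 0 in 8 of 9 libraries. Pck2, its mitochondrial counterpart, had 79.6 ± 9.17 CPM in astrocytes, 178 ± 31.7 CPM in mKate2- and 176 ± 37.8 CPM in mKate2+ SB28 and was higher by 1.17 ± 0.17 and 1.22 ± 0.20 (edgeR adjusted p = 0.000555 and 0.00135). Pdp2, the other catalytic subunit of the PDH phosphatase, was higher by 0.96 ± 0.13 and 0.95 ± 0.14 (edgeR adjusted p = 0.000498 and 0.00083), at 14.7, 18.4 and 16.2 CPM in astrocytes and 29.0 to 34.4 CPM in SB28.

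Of the carriers that serve the malate-aspartate shuttle and glutamate import, Slc25a13 was higher in SB28 and Slc25a22 lower, and Slc25a11 and Slc25a12 did not pass. The log2 fold changes of Slc25a22 were -0.50 ± 0.16 and -0.56 ± 0.16 (edgeR adjusted p = 0.025 and 0.0188). Either call was lost in 2 of 6 fits without 1 library. Slc25a22 and Slc25a11 were named after their values were seen. Slc25a13, an aspartate-glutamate carrier of the mitochondrial inner membrane, had 26.3, 34.9 and 34.7 CPM in astrocytes, 158, 152 and 157 CPM in mKate2- and 170, 150 and 163 CPM in mKate2+ SB28. It was 4.93-fold and 5.31-fold higher (log2 fold change 2.30 ± 0.12 and 2.41 ± 0.14, edgeR adjusted p = 8.83e-06 and 1.51e-05). Slc25a18, a mitochondrial glutamate carrier, had 54.8, 29.5 and 35.9 CPM in astrocytes and between 0.22 and 0.48 CPM in SB28, with log2 fold changes of -7.08 ± 0.35 and -6.73 ± 0.38. It too passed the filter on low counts only through the astrocytes, so these are a description with no p. Slc25a12, named here as the partner of Slc25a13 after its values were seen, did not pass, and its RPKM of 13.9 ± 1.02 in astrocytes was above the 8.42 ± 1.30 of Slc25a13, whereas in mKate2- SB28 12.4 ± 0.94 stood below 41.1 ± 0.88.

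Ldhb, the lactate dehydrogenase subunit that prevails in oxidative tissues, had 216, 170 and 190 CPM in astrocytes and between 7.86 and 10.3 CPM in SB28, where it was 20.1-fold and 18.7-fold lower (log2 fold change -4.33 ± 0.17 and -4.22 ± 0.16, edgeR adjusted p = 4.48e-06 and 5.25e-06). Ldha, also named after its values were seen, had 1763 ± 354, 1933 ± 245 and 2016 ± 392 CPM with overlapping groups, so Ldhb supplied 19.0% ± 3.88 of the summed RPKM of both genes in astrocytes and no more than 1.27% in any SB28 library. Ogdhl, a relative of the Ogdh dehydrogenase, was lower by the same test, at -1.62 ± 0.18 and -1.71 ± 0.20 (edgeR adjusted p = 0.000192 and 0.00031). Among the subunits of succinate dehydrogenase, the flavoprotein gene Sdha was lower (-0.50 ± 0.11 and -0.38 ± 0.12, edgeR adjusted p = 0.00566 and 0.0231) and the membrane anchor gene Sdhd higher (0.31 ± 0.12 and 0.40 ± 0.12, edgeR adjusted p = 0.0492 and 0.0256). With 1 library left out, the Sdhd call was lost in 5 of 6 fits in mKate2- and in 4 of 6 in mKate2+ SB28, with an edgeR adjusted p of up to 0.171 without mKate2- replicate 1 and 0.0952 without mKate2+ replicate 3. Astrocyte replicates 2 and 3 ended it in both populations, as did mKate2- replicates 2 and 3 and mKate2+ replicate 2 in their own. The Sdha call in mKate2+ SB28 was lost without mKate2+ replicate 1 or 3, with an edgeR adjusted p of up to 0.0946. Sdhb and Sdhc did not pass in either population. The pyruvate carrier gene Mpc2 was lower in mKate2- SB28 (-0.95 ± 0.18, edgeR adjusted p = 0.00215) and did not pass in mKate2+ SB28 (-0.56 ± 0.23, edgeR adjusted p = 0.0651), where replicate 2 had 25.8 CPM beside 15.4 and 17.4 CPM in replicates 1 and 3. Mpc1, the other subunit of that carrier, passed in neither, at 25.6 ± 7.75, 17.7 ± 0.91 and 19.0 ± 0.77 CPM.

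**Figure D4:**
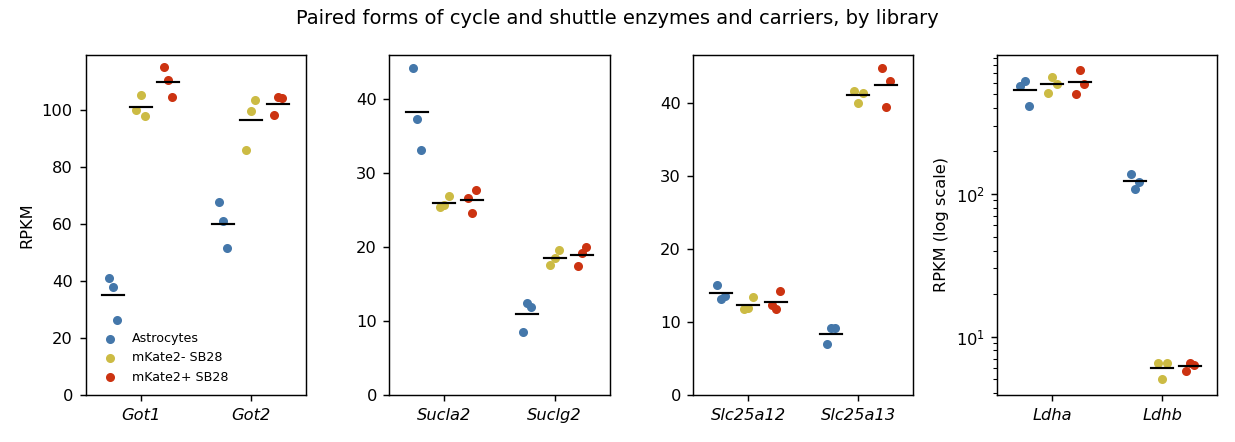
RPKM in every library for 4 pairs of partner genes, astrocytes in blue, mKate2- SB28 in yellow, mKate2+ SB28 in red, group means as lines, with a log axis for the lactate dehydrogenase pair alone. Got1, Suclg2 and Slc25a13 are higher and Sucla2 and Ldhb lower in all 6 SB28 libraries than in any astrocyte library.

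The comparison that bears on mitochondrial uptake is mKate2+ against mKate2- SB28, and there no member passed. Me3 fell under the filter on low counts, and of the 30 members tested edgeR called 0 at an adjusted p below 0.05, DESeq2 called 0, and 0 had an unadjusted p below 0.05, which 2.03% of 11854 genes had. The study's thresholds for this comparison were a fold above 1.5, an unadjusted p below 0.05 and a count above 50, used for upregulated genes. Applied here in both directions, with edgeR p-values and the mean normalized count, they also held for 0 members. Of all genes, 0.194% passed in the higher direction and 0.169% in the lower. The log2 fold changes lay between -0.18 and 0.17, with a median of 0.07 beside 0.0033 over all genes tested. For 29 of the 30 members the 95% interval stayed within a 1.5-fold difference in either direction. The exception was Pdk2, with an upper bound of 0.59 on the log2 scale.

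Got1 had the smallest p of the 30. Its 253, 267 and 248 CPM in mKate2- and 292, 280 and 265 CPM in mKate2+ SB28 overlapped, and the log2 fold change was 0.17 with a 95% interval of -0.03 to 0.38 (edgeR adjusted p = 0.923). Idh3g was at 107, 112 and 112 CPM in mKate2- and 117, 119 and 117 CPM in mKate2+ SB28, a log2 fold change of 0.15 (95% interval -0.03 to 0.32). Mdh2 followed with 0.17 (-0.05 to 0.38). In the lower direction Pdp1 had 38.8, 39.6 and 38.8 against 36.4, 32.9 and 37.5 CPM, a log2 fold change of -0.09 (-0.27 to 0.09), Pdk4 -0.18 (-0.57 to 0.20) and Dld -0.05 (-0.25 to 0.14). None of these differences passed the test, although the libraries of the SB28 populations did not overlap for Idh3g and Pdp1. In CPM these were the only members of the 30 without overlap. In TMM-scaled levels the mKate2+ libraries lay wholly above the mKate2- libraries for 3 members, Idh3g, Dlat and Sucla2, and wholly below for Pdp1, where 4.19% and 5.00% of all genes were so separated.

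The sign of these small differences leaned one way and their number depended on single libraries and on the scaling. Of the 30 members, 25 had a positive log2 fold change, beside 50.9% of all genes, among them all 11 genes of the cycle. Without mKate2+ replicate 2, the library with more reads on short genes, 20 were positive and the median was 0.02, and without mKate2- replicate 1, 21 were positive and the median was 0.04. Of the cycle genes, Idh3b (-0.03) and Fh1 (-0.0008) were negative without mKate2+ replicate 2. With library totals in place of TMM factors, a setting chosen after seeing the data, 17 were positive with a median of 0.02, and all genes had a median of -0.05. Summed CPM of the 31 members was 1.02-fold in mKate2+ over mKate2- SB28, with libraries of 4781, 5077 and 5029 against 4999, 5025 and 5092 CPM, which overlap.

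**Figure D5:**
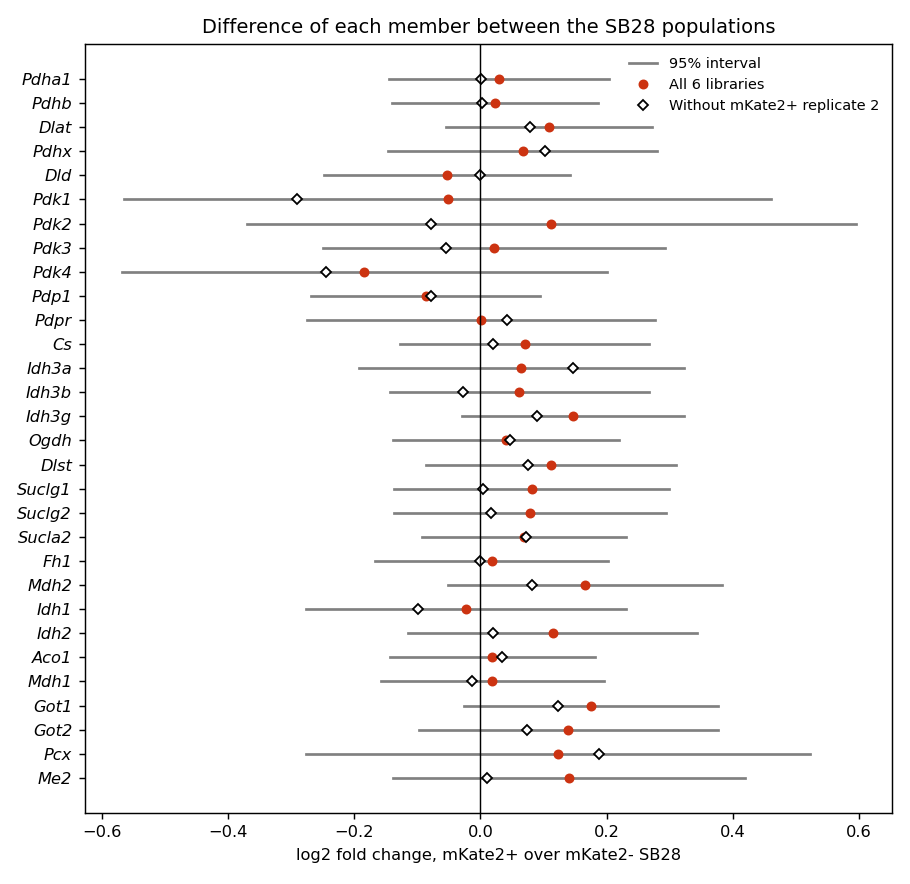
Log2 fold change of 30 members in mKate2+ over mKate2- SB28 (red points) with 95% intervals (grey lines), and the same value without mKate2+ replicate 2 (open diamonds). Every interval includes 0, and 20 instead of 25 values are positive without that library.

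The members varied less among the SB28 libraries than among the astrocyte libraries, in the median. The coefficient of variation of a member over 3 libraries had a median of 14.5% in astrocytes, 4.81% in mKate2- and 6.24% in mKate2+ SB28, and it exceeded 20% for 8, 2 and 3 of the 31 members. Astrocyte replicate 3 was the lowest of its group for 19 members, among them Got1, Got2, Idh2 and Mdh2, and the highest for 5. Over the 6 SB28 libraries, mKate2+ replicate 2 was the lowest for 12 members and the highest for 8. Over all genes that library stood apart within its group. Chi-square divided by its degrees of freedom came to 134 and 121 against mKate2+ replicates 1 and 3, beside 15.8 between those replicates. It was 29.2 to 50.7 among the mKate2- libraries and 74.1 to 130 among the astrocyte libraries (counting noise alone would give 1). Where libraries differ beyond counting noise this value grows with read depth, and mKate2+ replicate 2 had the most reads, 39287841.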

How the data were processed

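The deposited data are the authors' raw counts of reads per gene in 9 RNA-seq libraries, with no normalization. Per the submitters' processing notes, reads were trimmed with Trimmomatic 0.36, mapped to GRCm38 with STAR 2.5.2b and counted with featureCounts of Subread 1.5.2. The strand setting and annotation release are not given in the sources used here, so overlapping and near-identical genes are uncertain. The sort gates in the labels and in the paper differ in which cells carried the violet dye, so libraries were taken by their names. Labels and paper also give different amounts of serum and N2 supplement for the co-culture medium, which are therefore not printed. Replicates within a group were separate co-cultures. Symbols, positions and exonic lengths came from GENCODE M21, in which 259 gene IDs have no name.

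Each comparison used its 6 libraries, genes above 1 CPM in at least 2 of them, TMM factors and edgeR 4.0.16 (quasi-likelihood test, R 4.3.3), with adjustment over all genes tested. Printed CPM and RPKM use library totals without TMM factors. Steps were tested on simulated data. Near-identical transcripts were sought with BLAST at 95% identity over at least 150 bases. The rule for named genes took all 31 members, the 3 related genes with the smallest adjusted p per direction, the succinate dehydrogenase subunits, the pyruvate carriers, and marker lists. Members, lists and tests were chosen with earlier results of these data known. DESeq2 1.42.0 and the other alternatives are described in the closing section. The mKate2 transgene was not analysed here.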

Additional observations from a re-analysis of the deposited data

How the results depend on the processing

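The alternatives were DESeq2, scaling by the upper quartile, all genes without the filter on low counts, a fit to all 9 libraries, removal of the gene length trend, a replicate block, leaving out each library in turn, TMM-scaled CPM for the sums and, chosen after seeing the data, library totals without TMM factors. No call of a member or related gene against astrocytes changed sign in any setting. Values that did not pass did change sign in some setting for 3 members in mKate2- SB28 (Pdp1, Idh1 and Mdh1), for 2 in mKate2+ SB28 (Idh1 and Mdh1) and for 14 of 30 members between the SB28 populations. Members higher and lower than astrocytes numbered between 10 and 17 and between 5 and 7 in mKate2- SB28, and between 9 and 17 and between 4 and 6 in mKate2+ SB28. Over these settings 14.9% to 31.7% of all genes were higher and 19.7% to 36.2% lower in mKate2- SB28. In mKate2+ SB28 14.4% to 31.8% were higher and 18.7% to 34.9% lower. The lowest of these shares came without the filter on low counts. Between the SB28 populations 0 members passed in any setting. Among members, calls at an adjusted p below 0.05 that some setting ended were those of Pdhx, Idh3a, Dld, Pdk1, Cs and Sucla2; upper-quartile scaling ended Idh3a in both populations and Dld and Cs in mKate2+ SB28, and keeping low-count genes ended Sucla2 and Cs there. At the stricter rule Dlst was lost in mKate2- SB28 with upper-quartile scaling (log2 fold change 0.93) and library totals (0.999), and without astrocyte replicate 1 (0.95) or mKate2- replicate 3 (0.97). Among the related genes, calls that leaving out 1 library ended included Sdhd and Slc25a22 in both populations and Sdha and Nnt in mKate2+ SB28, with Slc25a22 and Nnt named after their values were seen. With TMM-scaled CPM, the summed level in mKate2+ SB28 was 1.31-fold that of astrocytes (1.24-fold in library totals) and 1.06-fold that of mKate2- SB28 (1.02-fold), and the cause was not tested. Upper-quartile normalization moved the median of all genes against astrocytes to -0.12 in both populations.

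The paper describes astrocytes and both SB28 populations as sorted from 3 distinct co-cultures, so libraries of different groups shared co-cultures. Whether a replicate number marks 1 co-culture in all groups is not stated in the sources used here, so the main fits did not treat the libraries as paired. Deviations of same-numbered libraries from their group means correlated at 0.05, 0.04 and 0.02 for mKate2- SB28 and astrocytes. The values were -0.14, 0.06 and 0.25 for mKate2+ SB28 and astrocytes, and -0.0006, 0.13 and 0.17 for the SB28 populations. Different-numbered libraries ranged from -0.09 to 0.06, from -0.27 to 0.25 and from -0.17 to 0.08, in the same order. Between the SB28 populations, replicates 2 and 3 thus lay above every different-numbered pair, and replicate 1 did not. These correlations do not settle what the numbers mark. With the replicate number as a block, 11 members were higher and 5 lower in mKate2- SB28, beside 28.8% and 32.5% of all genes. In mKate2+ SB28, 10 were higher and 5 lower, beside 26.1% and 29.9%. Without the block these counts were 12 and 5 in mKate2- and 13 and 5 in mKate2+ SB28. Between the SB28 populations 0 members passed with the block. Depth limited Me3 in SB28, with 7 to 17 reads a library.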
